A study of Mus musculus with 15 samples.

Results

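The third complementarity-determining region (CDR3) of the T-cell receptor beta chain (TCRβ) is the loop that varies most between T cells, and receptors with an unusually long loop are described here. A receptor was taken as long when its CDR3 had 16 or more residues, counted from the conserved cysteine at the end of the V segment to the phenylalanine of the J segment. Of 59364 TCRβ clonotypes in 15 libraries, 6905 (11.6%) were long. A clonotype is 1 distinct combination of V family, J cluster and CDR3 nucleotide sequence in 1 library, so the same sequence in 2 libraries counts once in each. Among the long clonotypes, 5236 had 16 residues, 1341 had 17, 263 had 18, 47 had 19 and 18 had 20, the longest in the tables. A cysteine first and a phenylalanine last were found in 6852 of them (99.2%), and 53 lacked one or the other.

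All mice were of the non-obese diabetic (NOD) strain, which becomes diabetic through autoimmunity, and all were 125 days old. They were wild type NOD (WT) or Ifngr-1-mutant NOD (mutant), the mutant mice having an altered gene for a chain of the interferon-gamma receptor. Cells of the spleen and of lymph nodes that do not drain the pancreas were combined for each mouse and stained with a tetramer of the class I molecule H-2Kd that carries a peptide of IGRP, a protein of pancreatic beta cells. CD8+ T cells that bound the tetramer and were kept by a magnetic column gave 3 WT and 4 mutant libraries (TET), and CD8+CD44+ T cells without the tetramer gave 4 WT and 4 mutant libraries (CD8). A 4th WT TET library was not analysed here. The labels do not limit the mutation to a cell type, the TET cells were defined by 1 peptide only, and the tables hold no other gene against which the cell type could be checked.

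A TCRβ chain is assembled by joining a V, a D and a J segment. Enzymes trim the ends of the segments and add random nucleotides at both joints, so CDR3 length depends on the segments chosen, on trimming and on addition. The beginning and end of the loop come from V and J, and the middle, which usually lies over the peptide, comes mostly from D and the added nucleotides. TRBD1 can join either J cluster, whereas TRBD2 lies between TRBJ1 and TRBJ2 and is ordinarily joined to TRBJ2.

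The libraries differed in size. Total counts were 2536 to 14958 in WT TET, 17294 to 60164 in mutant TET and 17116 to 32856 in CD8 libraries. Long clonotypes numbered 11, 8 and 12 in WT TET 1, 2 and 3, and 119, 243, 197 and 44 in mutant TET 1 to 4. CD8 libraries held between 228 and 1149 long clonotypes. Shares in a WT TET library therefore rested on few sequences. WT TET 2 and mutant TET 4 stood apart from the other TET libraries: they had 18 nucleotide sequences in common, which made up 25.4% of the counts of the first and 88.9% of the counts of the second. None of the 18 was long. Where leaving out both of them changed a call or moved a difference between TET and CD8 in values per library by more than 1.5 times, the value without them is given beside it. Whether the counts are reads or molecules is not stated, so binomial intervals cover counting error only.

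The largest long clonotype of each TET library is printed below to show how a long loop was built, in 5′ to 3′ orientation, with its V family and J segment. Capitals mark the nucleotides between the part aligned to V and the part aligned to J, which hold D and the added nucleotides.
WT TET 1, TRBV13 with TRBJ1-4: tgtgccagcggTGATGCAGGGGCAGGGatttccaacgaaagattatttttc
WT TET 2, TRBV13 with TRBJ2-2: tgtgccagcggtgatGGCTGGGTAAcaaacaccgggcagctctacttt
WT TET 3, TRBV13 with TRBJ2-2: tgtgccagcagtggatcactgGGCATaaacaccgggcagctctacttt
mutant TET 1, TRBV13 with TRBJ2-1: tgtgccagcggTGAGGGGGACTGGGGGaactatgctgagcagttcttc
mutant TET 2, TRBV13 with TRBJ1-6: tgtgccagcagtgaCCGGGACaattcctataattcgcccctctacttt
mutant TET 3, TRBV23 with TRBJ2-7: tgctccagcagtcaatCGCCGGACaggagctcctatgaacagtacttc
mutant TET 4, TRBV13 with TRBJ2-2: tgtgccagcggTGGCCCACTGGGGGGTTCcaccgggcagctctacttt

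Of these 7, 6 used TRBV13, and 3 of the 6 joined it to TRBJ2-2. The gap between V and J ran from 5 nucleotides in WT TET 3, where V and J covered most of the loop, to 18 in mutant TET 4. The longest loop of the TET libraries had 20 residues and was found in mutant TET 2 with 13 counts. The longest of the CD8 libraries also had 20 residues, and the one of them with most counts was in mutant CD8 2 with 6 counts. Both are shown because nearly the whole excess length lay between V and J.
mutant TET 2, TRBV13 with TRBJ2-3: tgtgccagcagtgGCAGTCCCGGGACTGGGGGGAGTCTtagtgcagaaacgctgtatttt
mutant CD8 2, TRBV17 with TRBJ2-4: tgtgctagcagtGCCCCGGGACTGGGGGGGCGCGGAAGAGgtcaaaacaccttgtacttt

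Long loops held more nucleotides from every source, most of all between V and J. In the CD8 libraries, the gap was 14.02 ± 0.210 nucleotides (SD, n = 8 libraries) in long clonotypes and 9.32 ± 0.0919 in clonotypes of 12 to 15 residues. The part aligned to J was 20.9 ± 0.158 against 18.7 ± 0.0423 nucleotides, and the part aligned to V was 13.97 ± 0.113 against 13.4 ± 0.0908. The gap thus differed by more than the V and J parts did. A D segment was named for nearly all long clonotypes: 5.82% ± 1.10 of long and 28.0% ± 0.684 of other CD8 clonotypes had none. In the TET libraries the long gap was 13.5 ± 0.963 nucleotides (SD, n = 7) and the share without a named D was 8.16% ± 4.11. Since a longer loop must have more nucleotides, these values describe the class and were not tested. In the residues encoded by the gap, glycine made up 39.8% ± 0.785 of long CD8 and 37.8% ± 6.84 of long TET middles, the TET spread covering the CD8 value.

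**Figure D1:**
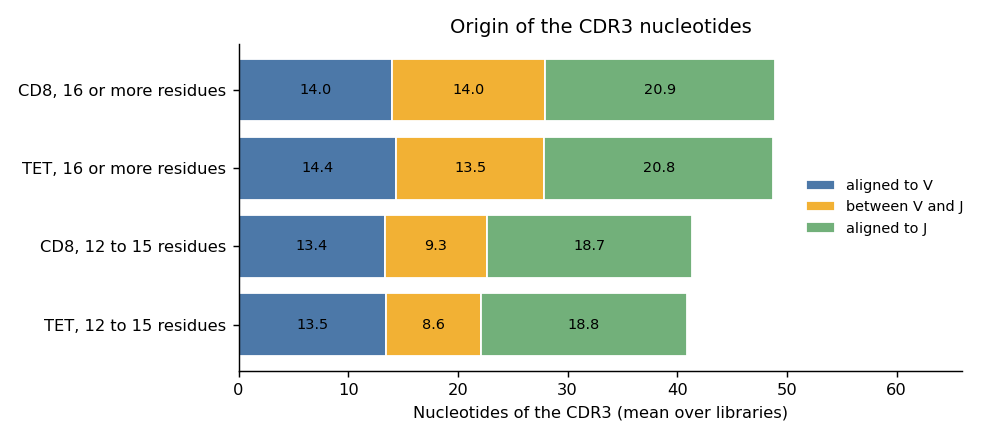
Mean number of CDR3 nucleotides (horizontal axis) aligned to V, lying between V and J, and aligned to J, over 8 CD8 or 7 TET libraries, for loops of 16 or more and of 12 to 15 residues. The segment between V and J grows from 9.32 to 14.02 nucleotides in CD8, more than the V and J segments do.

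Whether tetramer-binding cells held more or fewer long receptors was asked first by counting each clonotype once. Long clonotypes made up 10.8%, 6.35% and 12.4% of the clonotypes of WT TET 1, 2 and 3. In mutant TET 1 to 4 they made up 11.9%, 11.1%, 12.1% and 11.2%. WT TET 2 was the lowest library of the series, with an exact 95% binomial interval of 2.78 to 12.1%, and the other 14 libraries lay between 10.8 and 12.4%. The WT CD8 libraries had 11.2%, 11.5%, 11.9% and 11.5%, and the mutant CD8 libraries had 11.7%, 11.96%, 11.5% and 11.7%. The TET mean was 10.8% ± 2.06 (SD, n = 7) and the CD8 mean 11.6% ± 0.247 (SD, n = 8), and the difference, taken within strains and averaged with equal weight as in every comparison of the fractions by library, was -0.912 percentage points and not called (exact permutation test within strain, two-sided, p = 0.268, adjusted p = 0.469 over 28 tests). Without WT TET 2 and mutant TET 4 the difference was 0.0208 points.

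Just inside the threshold, loops of 16 residues were 8.60% ± 1.69 of TET and 8.81% ± 0.174 of CD8 clonotypes. Just outside it, loops of 15 residues were 19.6% ± 3.54 of TET and 22.5% ± 0.677 of CD8 clonotypes. In edgeR's quasi-likelihood test across lengths, 2 of 8 lengths tested (25%) differed between TET and CD8 at an adjusted p under 0.05, and neither was long. The log2 fold change of clonotype numbers, TET over CD8, was -0.04 (SE 0.05, edgeR adjusted p = 0.704) at 16 residues and -0.01 (SE 0.14, edgeR adjusted p = 0.979) at 17 residues. Length 15, with a log2 fold change of -0.13 (edgeR adjusted p = 0.0465), was lower in TET, so moving the threshold to 15 residues turned the share difference into -4.02 points (exact permutation test, adjusted p = 0.0448).

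Counting every read or molecule, long receptors took a much less even part of the TET than of the CD8 libraries. They held 346 of 4968 counts in WT TET 1 (6.96%), 57 of 14958 in WT TET 2 (0.381%) and 389 of 2536 in WT TET 3 (15.3%). In mutant TET 1, 2 and 3 they held 7.86%, 6.66% and 8.29% of the counts, and in mutant TET 4 they held 231 of 60164 (0.384%). WT TET 3 lay above every CD8 library and the 6 other TET libraries lay below every CD8 library. The CD8 libraries ranged from 9.69 to 11.2%, with a median of 10.8%. The means were 6.55% ± 5.14 (SD, n = 7) in TET and 10.7% ± 0.506 (SD, n = 8) in CD8. The difference of -3.98 points was not called (exact permutation test, p = 0.0596, adjusted p = 0.152). WT TET 3 decided the call: without it the difference was -5.93 points (exact permutation test, adjusted p = 0.00889), and without WT TET 2 it was -2.19 points (adjusted p = 0.480, exact permutation test). Without WT TET 2 and mutant TET 4 it was -1.29 points (adjusted p = 0.659, exact permutation test).

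**Figure D2:**
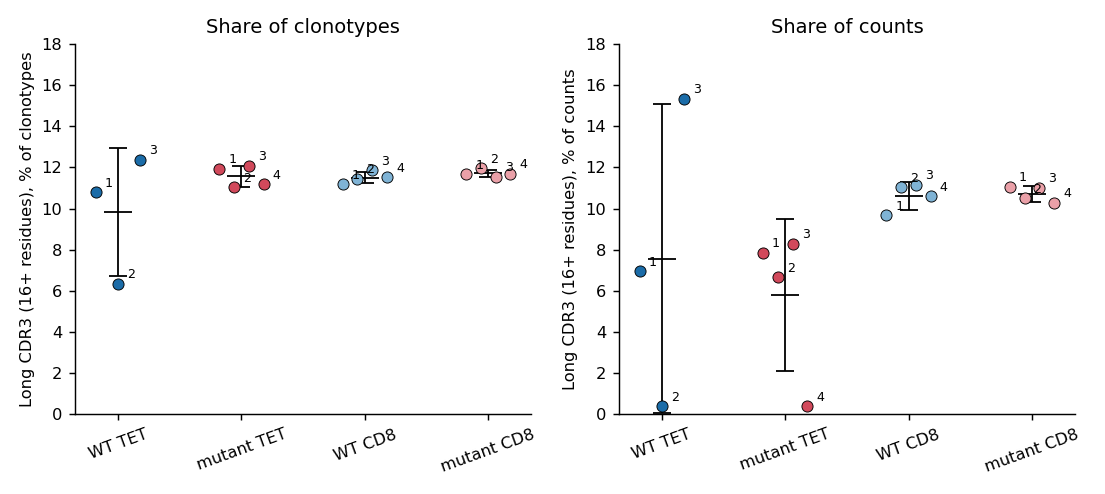
Share of long CDR3 among clonotypes (left) and among counts (right), in percent, 1 numbered point per library, with the mean and SD of each group. By clonotype all libraries except WT TET 2 (6.35%) lie between 10.8 and 12.4%; by count TET libraries spread from 0.381 to 15.3% and CD8 libraries from 9.69 to 11.2%.

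Clone size was compared within each library as the log2 ratio of the mean count of long to the mean count of other clonotypes. In the 8 CD8 libraries long clonotypes were smaller on average, with ratios of -0.23, -0.06, -0.10 and -0.14 in WT CD8 1 to 4 and of -0.09, -0.21, -0.08 and -0.21 in mutant CD8 1 to 4. The mean of -0.14, a linear ratio of 0.909 ± 0.0427 (SD, n = 8), was below 0 in 8 of 8 libraries (exact sign-flip permutation test, p = 0.00781, the smallest that 8 libraries allow, adjusted p = 0.0365). The difference was small in absolute terms: 3.99 ± 1.598 counts per long and 4.42 ± 1.90 per other clonotype. Median counts were equal in 7 of the 8 CD8 libraries, but medians of 2 to 6 counts are too coarse to show such a ratio. Clonotypes with 1 count were commoner among long than other clonotypes in every CD8 library. They were 15.8% against 15.3% in WT CD8 1 and 40.0% against 36.0% in WT CD8 4 (not tested).

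In TET libraries the ratios were more spread. The log2 ratio was -0.69, -4.15 and 0.36 in WT TET 1, 2 and 3 and -0.67, -0.80, -0.60 and -5.03 in mutant TET 1 to 4. WT TET 2 and mutant TET 4 lay far below the rest, and WT TET 3 was the only library of the 15 in which long clonotypes were larger on average. By the median count, long clonotypes were larger in mutant TET 1 (7 against 6) and mutant TET 3 (3 against 2) as well as in WT TET 3 (31 against 18). The TET mean of -1.65 was not called (6 of 7 libraries below 0, exact sign-flip permutation test, p = 0.0313, adjusted p = 0.0875), and it was -0.48 without WT TET 2 and mutant TET 4. The difference between TET and CD8 was -1.50 log2 units, which also missed the threshold (exact permutation test, p = 0.0139, adjusted p = 0.0555). Without WT TET 2 and mutant TET 4 the difference was -0.29 (adjusted p = 0.307, exact permutation test), and without WT TET 3 it was -1.96 (adjusted p = 0.00889, exact permutation test). It was also called without mutant TET 3, at -1.69 (adjusted p = 0.0490, exact permutation test).

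**Figure D3:**
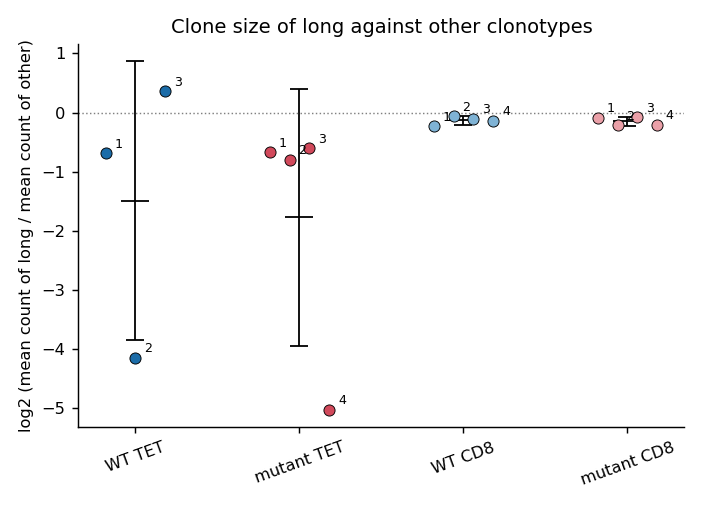
Log2 ratio of the mean count of long to other clonotypes (vertical axis), 1 numbered point per library, with the mean and SD of each group; the dotted line marks equal size. CD8 libraries lie just below the line, WT TET 2 and mutant TET 4 at -4.15 and -5.03, and WT TET 3 at 0.36.

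Among the 50 largest clonotypes of each library, 35 of 400 places in CD8 (8.75%) and 21 of 350 in TET (6%) were held by long clonotypes, against 11.6% of all clonotypes. WT TET 3, with 8 of 50 (16%), lay above that share, as did mutant CD8 3 (14%), WT CD8 2 (12%) and mutant CD8 1 (12%). WT TET 3 had only 97 clonotypes, so its 50 largest were a large part of the library. In WT TET 3 the largest long clonotype (TRBV13 with TRBJ2-2) had 89 counts, 3.51% of the library, and ranked 4th among all its clonotypes. In mutant TET 3 the TRBV23 clonotype printed above ranked 8th with 319 counts (1.45%). In the 5 other TET libraries the leading long clonotype ranked between 12th and 36th. It had 80 counts in WT TET 1 (1.61%) and 168 in mutant TET 1 (0.971%). In WT TET 2, mutant TET 2 and mutant TET 4 it had 40, 44 and 114 counts, a smaller part of each library. The leading long receptor of mutant TET 2 was also present, by amino acids, in 3 CD8 libraries. A single clone carried much of the long counts in 2 libraries: the leading one made up 70.2% of the long counts of WT TET 2 and 49.4% of those of mutant TET 4. The leading long clonotypes of the CD8 libraries had 14 to 60 counts and ranked between 4th and 31st. They used TRBV13 in 6 of the 8 libraries, TRBV1 in mutant CD8 2 and TRBV12 in mutant CD8 4.

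V segments encode the first residues of the CDR3 and the other loops of the chain, and V families differed in how often their loops were long. In CD8 libraries the long share was 24.6% ± 4.50 (SD, n = 8) of TRBV2 clonotypes and 21.5% ± 2.06 of TRBV5 clonotypes. It was 15.6% ± 1.27 for TRBV16, 14.4% ± 2.37 for TRBV1 and 12.1% ± 1.05 for TRBV12. It was 9.61% ± 0.720 for TRBV13, the family with most clonotypes. TRBV20 was at 4.86% ± 1.84 and TRBV30, with 163 clonotypes, at 1.27% ± 1.78, and other families not named here lay among these values or rested on few clonotypes. TRBV2 and TRBV5 overlapped within their spread, and both lay well above TRBV13.

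TRBV13 was therefore rarer among long than among other CD8 clonotypes, at 29.1% ± 1.72 against 36.0% ± 1.49. The difference of -6.91 points had the same sign in 8 of 8 libraries (exact sign-flip permutation test, p = 0.00781, adjusted p = 0.0365). In TET the same difference was -3.92 points, negative in 6 of 7 libraries and not called (exact sign-flip permutation test, p = 0.609, adjusted p = 0.841). WT TET 3 was the exception, with TRBV13 in 91.7% of its long and 49.4% of its other clonotypes.

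Between the fractions, TRBV13 was the V family whose share of long receptors was compared library by library. It was used by 5 of 11, 3 of 8 and 11 of 12 long clonotypes of WT TET 1, 2 and 3 (45.5%, 37.5% and 91.7%) and by 37.0%, 40.3%, 39.1% and 40.9% of those of mutant TET 1 to 4. The CD8 libraries ranged from 26.2 to 31.5%, with a median of 29.0%, so that every TET library lay above every CD8 library. TRBV13 made up 47.4% ± 19.7 (SD, n = 7) of long clonotypes in TET and 29.1% ± 1.72 (SD, n = 8) in CD8, a difference of 19.7 points with strains weighted equally (exact permutation test, p = 0.000408, the smallest the design allows, adjusted p = 0.0114). Without WT TET 3 the difference was 11.3 points and still called (adjusted p = 0.00889, exact permutation test). Among loops of 17 or more residues it was 21.9 points and not called (exact permutation test, p = 0.0305, adjusted p = 0.109). With tetramer and CD8 libraries of the same number and strain paired, it was 18.3 points and no longer called (exact sign-flip permutation test, p = 0.0156, the smallest 7 pairs allow, adjusted p = 0.0729). TRBV13 was also commoner among other TET clonotypes, at 51.3% ± 8.07 against 36.0% ± 1.49 in CD8 (not tested).

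The V families were then compared in 1 fit of clonotype numbers by V family and length class. Of 25 combinations that passed the filter on low numbers, 20 (80%) differed between TET and CD8 in edgeR's quasi-likelihood test at an adjusted p under 0.05. Of the 8 long ones among them, 6 differed, 3 higher and 3 lower in TET (of all 25, 36% were higher and 44% lower), a share near that of all combinations. The 3 lower ones passed the filter through the CD8 libraries alone. The split into higher and lower thus depended on the filter. Without WT TET 3, 31 combinations passed the filter and 10 long ones differed, and 10 long ones also differed without WT TET 2 and mutant TET 4. Both settings let more long combinations through the filter than the 8 above. The higher numbers are therefore not a sign of more change among long receptors. The median log2 fold change was -0.33 over the 8 long combinations and -0.14 over all 25.

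Long TRBV1, TRBV5 and TRBV13 clonotypes rose in TET. Long TRBV1 numbered 4, 0 and 0 in WT TET 1 to 3 and 19, 35, 34 and 7 in mutant TET 1 to 4, or 14.4 to 17.3% of the long clonotypes of each mutant library, against 5.26 to 10.1% in CD8 libraries. Its log2 fold change was 0.92 (SE 0.20, edgeR adjusted p = 2.67e-05). The 4 mutant TET libraries all lay above the CD8 range and 2 WT TET libraries had none. Long TRBV5 numbered 0, 2 and 0 in WT TET and 21, 43, 29 and 4 in mutant TET. Mutant TET 1 to 3, at 14.7 to 17.7% of long clonotypes, lay above the CD8 range of 7.75 to 11.8%. Mutant TET 4, at 9.09%, lay within that range, WT TET 2 was at 25%, and WT TET 1 and 3 had none. The 2 in WT TET 2 had the same amino acid sequence and 1 count each. The log2 fold change of long TRBV5 was 0.65 (SE 0.19, edgeR adjusted p = 0.00134). For long TRBV13 it was 0.47 (SE 0.12, edgeR adjusted p = 0.000399). In the same fit, loops of 12 to 15 residues had log2 fold changes of 0.86 for TRBV1, 0.64 for TRBV5 and 0.52 for TRBV13.

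Long TRBV16, TRBV12 and TRBV3 clonotypes fell in TET. They passed the filter on low numbers through the CD8 libraries alone, where they were frequent. Fitted with no filter, their log2 fold changes were -4.97, -4.33 and -1.95, each called in edgeR. TRBV16 gave 1 long clonotype in each of mutant TET 1 and 2 and none in the other 5 TET libraries, against 664 in CD8, where it made up 8.70 to 12.3% of long clonotypes per library. The pooled ratio of its share in TET to that in CD8 was 0.0298, with an exact 95% counting interval of 0.0036 to 0.108. TRBV12 gave 2 long clonotypes, both in mutant TET 1, against 417 in CD8, a pooled ratio of 0.0474 with an interval of 0.00573 to 0.172. Both families were thus rare among the long tetramer-binding receptors. Among loops of 12 to 15 residues their fitted log2 fold changes were -3.92 for TRBV16 and -7.09 for TRBV12. The edgeR adjusted p was 7.46e-16 for long TRBV16 and 2.78e-11 for long TRBV12. Long TRBV3 numbered 10 in TET and 381 in CD8, with a log2 fold change of -1.95 (SE 0.39, edgeR adjusted p = 4.04e-06).

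The remaining long families were TRBV19, with a log2 fold change of -0.10 (edgeR adjusted p = 0.734), and TRBV29, with -0.57 (edgeR adjusted p = 0.122). Other long families did not pass the filter. Long TRBV31 numbered 1, 1 and 0 in WT TET 1 to 3 and 9, 11, 13 and 6 in mutant TET 1 to 4. It made up 41 of 634 long TET and 71 of 6271 long CD8 clonotypes, a pooled ratio of shares of 5.71 with an exact 95% counting interval of 3.79 to 8.51. The 6 TET libraries that held it lay at 4.53 to 13.6% of long clonotypes, above the CD8 range of 0.348 to 2.10%. Fitted with no filter, over 64 combinations, its log2 fold change was 2.63 (SE 0.35, edgeR adjusted p = 1.24e-12). Loops of 12 to 15 residues with TRBV31, which passed the filter, had 1.73. With no filter, long TRBV15 (-6.71), TRBV14 (-2.19), TRBV4 (-1.26) and TRBV17 (-0.85) were also called, each lower in TET. Their edgeR adjusted p were 1.64e-07, 1.83e-05, 0.0117 and 0.0392. TRBV15 was found in 0 of 634 long TET clonotypes, which allows a share of up to 0.473%, and in 176 of 6271 long CD8 clonotypes (2.81%).

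**Figure D4:**
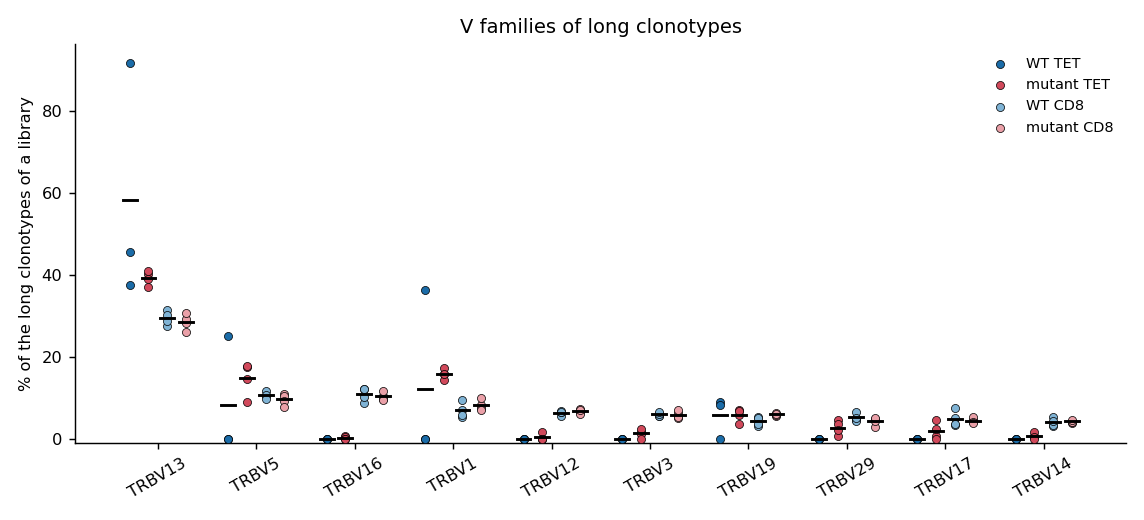
Share of each V family among the long clonotypes of a library, in percent, for the 10 families with most long clonotypes; points are libraries of the 4 groups and black bars are group means. Every TET point for TRBV13 lies above the CD8 points (26.2 to 31.5%), and TET points for TRBV16 and TRBV12 lie at or near 0.

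J segments encode the end of the loop and bring different numbers of residues. In CD8 libraries 25.0% ± 1.89 (SD, n = 8) of TRBJ2-2 clonotypes and 22.0% ± 2.22 of TRBJ2-3 clonotypes were long. TRBJ2-4 followed at 18.3% ± 1.55, TRBJ2-1 at 15.8% ± 0.969 and TRBJ1-6 at 14.7% ± 2.26. Only 3.47% ± 0.479 of TRBJ2-7 and 3.16% ± 1.01 of TRBJ1-1 clonotypes were long. TRBJ2-7 was the shortest segment in the tables, at 66 nucleotides, but TRBJ1-6 was the longest, at 72, and TRBJ2-2 had 70, so the order of long shares was not the order of segment lengths.

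**Figure D5:**
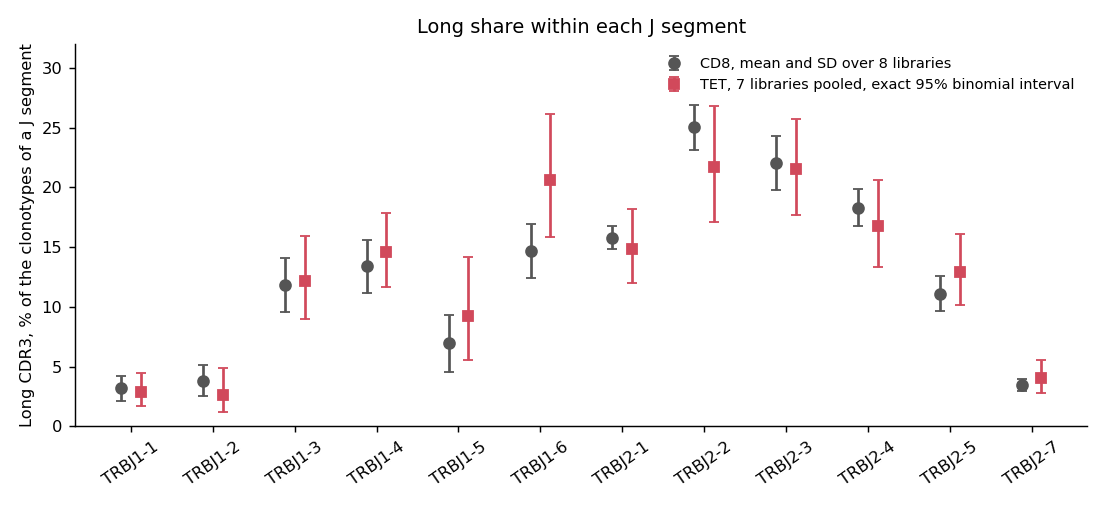
Share of long CDR3 among the clonotypes of each J segment, in percent; grey circles are the mean and SD over 8 CD8 libraries, red squares the 7 TET libraries pooled with an exact 95% binomial interval. TRBJ2-2 and TRBJ2-3 stand highest in CD8 (25.0 and 22.0%), TRBJ2-7 and TRBJ1-1 lowest (3.47 and 3.16%).

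By cluster, TRBJ2 was used by 79.5% ± 1.86 of long and 70.8% ± 1.73 of other CD8 clonotypes. The difference of 8.72 points was positive in 8 of 8 libraries (exact sign-flip permutation test, p = 0.00781, adjusted p = 0.0365). In TET the difference was 8.59 points, positive in 6 of 7 libraries and not called (exact sign-flip permutation test, p = 0.125, adjusted p = 0.250). The TRBJ2 share of long clonotypes was 45.5%, 87.5% and 83.3% in WT TET 1 to 3 and 69.7%, 62.1%, 63.5% and 77.3% in mutant TET 1 to 4. WT TET 1 had the lowest share of the series, and 2 WT TET libraries lay above the CD8 range of 76.6 to 82.2%. TET and CD8 differed by -9.37 points, which was not called (exact permutation test, p = 0.0902, adjusted p = 0.210). Without WT TET 2 and mutant TET 4 the difference was -14.7 points and was called (adjusted p = 0.0381, exact permutation test).

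In the fit by J segment and length class, 14 of 25 combinations (56%) differed between TET and CD8 at an edgeR adjusted p under 0.05. Among the 9 long ones 4 differed, 2 higher and 2 lower in TET (of all 25, 32% were higher and 24% lower), with a median log2 fold change of -0.12 against -0.02 over all 25. Long TRBJ1-6 clonotypes rose in TET by 0.92 (SE 0.26, edgeR adjusted p = 0.00124) and long TRBJ1-4 by 0.75 (SE 0.21, edgeR adjusted p = 0.00124). TRBJ1-6 was used by 2, 0 and 0 long clonotypes of WT TET 1 to 3 and by 10, 23, 15 and 2 of mutant TET 1 to 4. Its share of long clonotypes was 18.2% in WT TET 1 and 7.61 to 9.47% in mutant TET 1 to 3. These lay above the CD8 range of 2.96 to 5.28%, while mutant TET 4, at 4.55%, lay within it. As a share of long clonotypes, TRBJ1-4 was 11.4 to 13.4% in the mutant TET libraries, above the CD8 range of 3.95 to 8.87%, and 18.2%, 0 and 8.33% in WT TET 1 to 3, where WT TET 2 lay below and WT TET 3 within that range. Long TRBJ2-1 fell by 0.61 on the log2 scale (SE 0.18, edgeR adjusted p = 0.00166), from 16.5 to 21.9% of long clonotypes in CD8 libraries to 10.7 to 13.99% in mutant TET libraries and to 0, 0 and 33.3% in WT TET. Long TRBJ2-2 had a log2 fold change of -0.45 (SE 0.20, edgeR adjusted p = 0.0451), a call that was lost in DESeq2 (adjusted p = 0.0536), with paired libraries (edgeR adjusted p = 0.0781) and without mutant TET 2, mutant TET 3 or mutant CD8 1, 2 or 3 in turn (edgeR adjusted p = 0.0535 to 0.338). The other 5 long segments were not called, with TRBJ1-3 (0.57) and TRBJ2-4 (-0.41) nearest at an edgeR adjusted p of 0.0509 each. TRBJ1-3 was called without WT TET 1, WT TET 3, mutant TET 1 or mutant CD8 3 in turn, and TRBJ2-4 without mutant TET 3 or mutant CD8 3 in turn. In the same fit, loops of 12 to 15 residues had log2 fold changes of 0.68 for TRBJ1-4, 0.32 for TRBJ1-6 and -0.54 for TRBJ2-1, all called, and -0.25 for TRBJ2-2, which was not. Long TRBJ2-3, TRBJ2-5 and TRBJ2-7 had log2 fold changes of -0.12, 0.01 and -0.36. With 1 library left out at a time, TRBJ2-7 ranged from -0.98 to -0.06, with an edgeR adjusted p from 0.0133 to 0.898. Its result thus depended on single libraries, and mutant TET 3 held 19 of its 35 long TET clonotypes.

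The D segment named for a long receptor differed with its J cluster. Among long CD8 clonotypes with a named D, TRBD2 was named in 73.3% ± 2.92 (SD, n = 8) of those with TRBJ2 and in 8.72% ± 3.58 of those with TRBJ1. Other CD8 clonotypes had TRBD2 in 53.0% ± 1.14 and 9.22% ± 0.4927. TRBD2 was thus named more often in the long class within TRBJ2, while within TRBJ1 the values differed by less than their spread. These shares leave out clonotypes without a named D, which were 5.82% of long and 28.0% of other CD8 clonotypes. The aligned D had 9.95 nucleotides in long and 8.02 in other CD8 clonotypes. Whether errors in naming D differed with length was not tested. Over both clusters the TRBD1 share of named D segments was 39.0% ± 3.43 in long and 58.5% ± 1.27 in other CD8 clonotypes. The difference of -19.4 points was negative in 8 of 8 libraries (exact sign-flip permutation test, p = 0.00781, adjusted p = 0.0365).

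In TET the TRBD1 share of long clonotypes was 80.0%, 12.5% and 18.2% in WT TET 1 to 3 and 46.7%, 54.9%, 55.2% and 50% in mutant TET 1 to 4. The WT libraries, with 10, 8 and 11 named D segments, scattered on both sides of the CD8 range of 33.2 to 43.5%, and the 4 mutant libraries lay above it. TET and CD8 differed by 5.29 points, which was not called (exact permutation test, p = 0.631, adjusted p = 0.841), and by 11.7 points without WT TET 2 and mutant TET 4 (adjusted p = 0.537, exact permutation test). Within TET, long minus other was -19.6 points, negative in 6 of 7 libraries and not called (exact sign-flip permutation test, p = 0.0313, adjusted p = 0.0875).

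In CD8 libraries, long receptors were found in another library less often than shorter ones. A receptor here is a V family, a J cluster and an amino acid CDR3, whatever its nucleotides. Of long CD8 receptors 5.31% ± 2.09 (SD, n = 8) were found in another of the 15 libraries, and of other CD8 receptors 14.9% ± 2.06. The difference of -9.55 points was negative in 8 of 8 libraries (exact sign-flip permutation test, p = 0.00781, adjusted p = 0.0365). In TET libraries the shares were 27.0% ± 7.97 and 33.4% ± 4.21, and the difference of -6.47 points, negative in 6 of 7, was not called (exact sign-flip permutation test, p = 0.0313, adjusted p = 0.0875). Long receptors that were shared had been built with fewer nucleotides between V and J: 12.8 ± 0.369 in CD8, against 14.1 ± 0.243 in those seen once, lower in 8 of 8 libraries. Other CD8 receptors had 7.27 against 9.33, so fewer nucleotides there were not particular to long loops. In TET, shared long receptors had 12.96 ± 1.789 and those seen once 13.7 ± 0.972, lower in 6 of 7 libraries, WT TET 1 being the exception.

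Of 580 long receptors in TET libraries, 40 (6.90%) were found in 2 or more of them, and 86 (14.8%) were also in a CD8 library. Of 4422 other TET receptors, 7.64% were in 2 or more TET libraries and 19.2% in a CD8 library. Of the 40, 4 were found in 3 TET libraries, all of them mutant, and none in more. They are shown with their commonest nucleotide sequence in TET because they are the long receptors that recurred most among tetramer-binding cells.
TRBV1 with TRBJ1-6: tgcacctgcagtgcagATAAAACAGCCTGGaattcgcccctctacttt
TRBV13 with TRBJ2-5: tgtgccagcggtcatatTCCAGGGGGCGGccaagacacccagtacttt
TRBV29 with TRBJ2-7: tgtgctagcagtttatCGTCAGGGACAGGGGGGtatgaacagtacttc
TRBV13 with TRBJ1-6: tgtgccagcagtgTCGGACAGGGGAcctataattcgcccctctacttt

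All 4 were small. The TRBV1 receptor had 9, 3, 0 and 2 counts in mutant TET 1 to 4 and the TRBV13 receptor with TRBJ2-5 had 4, 9, 0 and 3. The TRBV29 receptor had 1, 1, 12 and 0 counts and the TRBV13 receptor with TRBJ1-6 had 2, 2, 5 and 0. Each was also seen in 1 or 2 CD8 libraries, where the TRBV29 receptor reached 4 counts. Only 1 long receptor was found in TET libraries of both strains. It used TRBV13 and TRBJ2-1, with 54 counts in WT TET 3, 2.13% of that library, and 2 counts in mutant TET 4. It had the same nucleotide sequence in both, and 2 CD8 libraries held the receptor at 4 and 2 counts.
TRBV13 with TRBJ2-1: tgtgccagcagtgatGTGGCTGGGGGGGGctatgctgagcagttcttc

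Exact nucleotide sequences were shared more in pairs of mutant TET libraries than in pairs with a WT TET library, which held few long clonotypes. Over the 6 pairs of mutant TET libraries, 45 long sequences were shared, between 2 and 20 per pair, with a median of 6.35% of the smaller library's long clonotypes, against 8.17% for other clonotypes. Over the 15 TET pairs that included a WT library, 1 long sequence was shared, against 84 other sequences, which were found in all 15 pairs. Over the 28 pairs of CD8 libraries, 53 long sequences were shared, with a median of 0.328%, against 1.05% for other clonotypes. Mutant TET 2 and 3 had most in common, with 20. A TET library and the CD8 library of the same number and strain shared 13 long sequences over 7 pairs. These were 2.05% of long TET clonotypes, against 2.22% for other TET clonotypes. TET and the other CD8 libraries shared 90 long sequences over 49 pairs. The median there was 1.23% of the smaller library's long clonotypes, against 2.29% for other clonotypes. Of the 8 long clonotypes of WT TET 2, 3 (37.5%) were in mutant CD8 4, each with 1 count in WT TET 2. Of its 118 other clonotypes, 17 (14.4%) were also in mutant CD8 4, so the overlap was not limited to long receptors. Of 634 long TET clonotypes, 492 (77.6%) were in no other library, against 75.2% of other TET clonotypes. The TRBV23 sequence that led mutant TET 3 with 319 counts was present with the same nucleotides at 1 count in mutant TET 4, 2 counts in WT CD8 1 and 5 counts in mutant CD8 3.

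The Ifngr-1 mutation was compared with WT within each fraction. By clonotype, long receptors were 9.83% ± 3.12 (SD, n = 3) of WT TET and 11.6% ± 0.517 (SD, n = 4) of mutant TET libraries, which overlapped (difference 1.73 points, exact permutation test, p = 0.371, adjusted p = 0.578). In CD8 they were 11.5% ± 0.286 in WT and 11.7% ± 0.177 in mutant libraries (SD, n = 4 each; difference 0.208 points, exact permutation test, p = 0.257, adjusted p = 0.469). By count, the long share was 7.56% ± 7.50 in WT and 5.80% ± 3.67 in mutant TET, and 10.6% ± 0.665 in WT and 10.7% ± 0.386 in mutant CD8, with adjusted p of 0.954 and 0.971 in the exact permutation test. None of the 12 tests between strains, on long shares, TRBV13, TRBJ2, TRBD1 and clone size, was called. The smallest p that either fraction allows is 0.0286, which with the other p-values as found gives an adjusted p of 0.0795 (exact permutation test), so no single strain test could have been called. WT TET values rested on 8 to 12 long clonotypes per library.

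TRBV13 came nearest to a difference between the strains in TET. It was used by 58.2% ± 29.2 (SD, n = 3) of long clonotypes in WT and 39.3% ± 1.74 (SD, n = 4) in mutant TET, a difference of -18.9 points that was not called (exact permutation test, p = 0.114, adjusted p = 0.246). WT TET 3 carried it: without that library the difference was -2.15 points. In edgeR's test, mutant against WT in TET, 1 of 6 lengths (16.7%) was called and none of them was long, and 0 of 9 V family combinations (0%) and 0 of 12 J segment combinations (0%) were called. Only 1 long length and long TRBV13 passed the filter there, with log2 fold changes of 0.11 for 16 residues and -0.36 for TRBV13 (edgeR adjusted p = 0.755 and 0.436). In CD8, 0 of 9 lengths, 0 of 43 V family combinations and 0 of 30 J segment combinations were called (0% each). Of the rows tested, 3, 14 and 11 were long, and their lowest edgeR adjusted p was 0.954, 0.148 and 0.309. The lowest of the long V families was that of TRBV19, with a log2 fold change of 0.55 (SE 0.19, edgeR adjusted p = 0.148), named here after its value was seen.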

How the data were processed

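Count tables for 15 TCRβ libraries were analysed. Per the labels' protocols, RNA was reverse transcribed with 9-nucleotide molecular identifiers, amplified by nested PCR and sequenced on a MiSeq. The authors deposited, per library, a count for each nucleotide CDR3 and its fraction of a library total. The tables do not state whether counts are reads or molecules. The genome build and calling software, not given in the sources used here, could not be checked. Shares were recomputed from the counts.

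Of 59368 entries, 4 alpha chain entries (6 counts) were left out. V is named by family only. J segments were assigned from the J cluster and the last residues of the CDR3. They stayed unassigned in 1785 clonotypes (3.01%), 89 of them long. In all 6816 assigned long clonotypes the J length in the tables was 19 nucleotides above that in RefSeq (GRCm38.p6). The TRBV13 group could not be split into its members.

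Values per library were compared in 28 two-sided exact permutation tests with Benjamini-Hochberg adjustment, called at an adjusted p under 0.05. TET was compared with CD8 over 2450 reassignments within strain, strains over 35 (TET) or 70 (CD8) splits, and long with other clonotypes over sign flips within libraries. Clonotype numbers per length, per V family and per J segment, the last 2 crossed with length class (11 or fewer, 12 to 15, 16 or more), were tested with edgeR 4.0.16 (quasi-likelihood, 1 common dispersion, library size the table total, filterByExpr with a minimum of 10) and, as an alternative, DESeq2 1.42.0. The edgeR code was tested on simulated data. The setting of 1 dispersion was chosen after the data had been seen. Named were each called or most frequent long family or segment, the largest long clonotype of each library, long receptors in 3 or more TET libraries, and the longest CDR3. The members and lists were chosen with earlier results of these data known.

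Numbers were taken to pair TET and CD8 libraries of a strain because the series describes 4 mice per strain for both fractions. It also says that no mouse gave duplicate samples, so the pairing is not certain. The 7 pairs' departures from their group's mean V family use correlated at -0.371 to 0.820, and 3 of 7 libraries matched their own number best.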

Additional observations from a re-analysis of the deposited data

Results flagged for a closer look

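In groups of 4 libraries, 21 sets of values were checked for a library far from the rest, and 3 stood out (chance alone marks about 1 in 20 groups). TRBJ2 made up 82.2% of long clonotypes in mutant CD8 4 and 78.7 to 79.1% in the other mutant CD8 libraries. The log2 ratio of the mean count of long to other clonotypes was lowest in mutant TET 4, at -5.03, while mutant TET 1, 2 and 3 lay at -0.80 to -0.60. In mutant CD8 1, 6.95% of long receptors were found in another library, against 3.77 to 3.98% in the other mutant CD8 libraries.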

How the results depend on the processing

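Of 132 recomputations of the exact tests under other settings, 105 kept direction and call. With a threshold of 15 residues, these comparisons of TET with CD8 became called: long share of clonotypes (-4.02 points) and of counts (-13.4), TRBJ2 share (-12.0), TRBD1 share (8.69) and size ratio (log2 -1.24). So did TRBD1, long minus other, within TET (-9.89), and in CD8 the strain differences in TRBD1 (-1.03) and size (log2 0.0234) changed sign. With 17 residues, the count share was called (-1.03) and TRBV13 was not (21.9, exact permutation test, adjusted p = 0.109). The strain differences in TRBJ2 (2.49) and TRBD1 (-2.70) in TET and in size in CD8 (log2 0.0059) turned. With clonotypes of 2 or more counts, size was called (-1.33), TRBV13 between strains in CD8 turned (0.0597), and 2 long J segments in place of 4 were called. Without WT TET 2 and mutant TET 4 (for edgeR added after seeing the data), the clonotype share (0.0208), TRBJ2 between strains in TET (0.719) and TRBV13 within TET (1.90) turned and TRBJ2 was called (-14.7). Among TRBV13 clonotypes alone, clonotype shares turned (0.912 for TET against CD8, -1.16 between strains in TET), and among other V families count shares between strains turned (5.97 in TET, -0.195 in CD8). Without each library's largest long clonotype, count share (-4.98) and size (-1.995) were called, and size between strains in TET turned (log2 0.0398). With the replicate block the TRBV13 difference was 18.3 points and lost its call, as did long TRBJ2-2 in edgeR; it changed no other call.

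In edgeR, 11 of 20 long V families were called with no filter, over 64 combinations, and 10 without WT TET 2 and mutant TET 4. Both settings tested more long families than the 8 of the main fit. Long rows that were not called changed sign: length 17 with TMM factors (0.00884), with 2 or more counts (0.13) and without those 2 libraries (0.0946). So did length 16 with 2 or more counts (0.0033) and, between strains in TET, without those libraries (-0.0766), TRBV19 with 2 or more counts (0.25), and TRBJ2-5 under the same settings as length 17 (-0.11, -0.0974 and -0.0532).

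Leaving out 1 library at a time, TET minus CD8 ranged from -5.93 to -2.19 points for count share, -5.48 to 11.4 for TRBD1 and -1.96 to -0.83 for log2 size. Mutant minus WT in TET ranged from -0.0126 to 3.00 points for clonotype share, -5.35 to 2.13 for count share, -17.3 to 3.76 for TRBJ2 and -1.61 to 0.80 for log2 size. In CD8 it ranged from -0.216 to 0.275 for count share, -0.544 to 1.25 for TRBJ2, -1.77 to 1.67 for TRBD1 and -0.0463 to 0.00993 for log2 size. Long minus other within TET ranged from -11.6 to 0.470 for TRBV13. Within CD8 it ranged from -7.24 to -6.30 for TRBV13, 8.49 to 8.98 for TRBJ2, -20.0 to -18.5 for TRBD1, -0.15 to -0.13 for log2 size and -9.87 to -9.11 for sharing. These 5 calls were lost each time, since 7 libraries allow no smaller p than 0.0156 (exact permutation test, adjusted p = 0.0729), and no direction changed. Between 6 and 10 long V families were called, with 10 only without WT TET 3, where more passed the filter. Of single long rows, length 16 ranged from -0.0708 to 0.00738 (from -0.0629 to 0.40 between strains in TET), length 17 from -0.0557 to 0.0534, TRBV19 from -0.27 to 0.10, TRBV13 between strains in TET from -0.82 to 0.37, TRBJ2-3 from -0.24 to 0.0047 and TRBJ2-5 from -0.19 to 0.31. Where no cause is named, the cause was not tested. Depth limited WT TET most: a receptor not seen could make up 0.118% of WT TET 3 (3 counts).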
